A study of Mus musculus with 8 samples.

Results

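The cells described here carry RNA of decorin (Dcn) and type III collagen (Col3a1) together. They are limited in RNA of single genes that mark cartilage matrix (Acan), mature osteoblasts (Bglap), marrow stroma (Cxcl12) and vessels (Rgs5 and Cdh5). Other genes of cartilage matrix and bone were not limited. The cells were chosen on measured counts of unique molecular identifiers (UMIs, each standing for 1 captured RNA molecule). A barcode was taken if it held at least 1600 genes, at most 20% mitochondrial UMIs, at least 3 UMIs each of Dcn and Col3a1, at most 1 of Acan, fewer than 20 each of Cxcl12 and Bglap, fewer than 3 of Rgs5 and none of Cdh5. Of the 12564 barcodes, 4460 passed the gene and mitochondrial limits and 72 of these met the whole rule, 1.61% (exact binomial 95% interval 1.27 to 2.03%). The 72 member cells hold 676513 UMIs, with a median of 8430 UMIs (3941 to 24418) and 2549 genes per cell.

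The cells came from the tibiae of 3 mice at P56 (8 weeks), pooled and deposited as 1 count matrix under 8 sample labels, with no map from barcodes to labels or animals. Every mouse carried MMP14 F/+, that is, 1 conditional allele of the membrane metalloproteinase Mmp14, with COL10A1cre, R26-tdT and Col1a1-2.3-GFP. The Cre driver acts in hypertrophic chondrocytes, so tdTomato marks these cells and their descendants, while the GFP transgene marks osteoblasts. Trabecular bone with part of the growth plate was dissected, the first trypsin digests were discarded, the rest was released with dispase and collagenase and passed through a 40 µm filter, and tdTomato-positive cells were enriched. No untreated or wild-type group was analysed here, and the pool is 1 sample. The values below therefore have no replicate check, no test was made between cells, and every interval is a 95% interval that covers counting error only.

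Fibroblasts are the cells that make the collagen of soft connective tissue. In tendons and ligaments they are called tenocytes, depend on the transcription factors scleraxis (Scx) and mohawk (Mkx) and carry the membrane protein tenomodulin (Tnmd). Another kind, the adventitial fibroblast, surrounds vessels and lies in loose fascia, and carries the surface proteins Ly6a (Sca-1), Cd34 and Pi16. At joint surfaces and in tendon sheaths, lining cells secrete lubricin, the product of Prg4, which lets tissues glide over each other.

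Dcn encodes a small proteoglycan that coats collagen fibrils and lies at chr10:97479609-97518143 (+, mm10, GENCODE M21, as all gene positions here). Col3a1, at chr1:45311538-45349706 (+), encodes the fibril collagen of extensible tissues. As these genes chose the cells, their levels are a description: Dcn ranged from 9 to 643 UMIs per member cell (median 115.5) and Col3a1 from 3 to 426 (median 30.5). No member lay at 3 to 5 UMIs of Dcn, and 1 barcode that otherwise met the rule lay at 1 or 2. For Col3a1, 3 members lay at 3 to 5 UMIs and 5 barcodes at 1 or 2. The limit on Acan, which encodes the cartilage proteoglycan aggrecan, was the one most crowded on both sides: 18 members held 1 Acan UMI, 20 barcodes that otherwise met the rule held 2 or 3, and 53 held at least 4. The highest member values were 12 UMIs for Cxcl12 and 18 for Bglap.

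The label of these cells as fibroblasts and tendon-like cells was checked against its markers. Of the 6 markers given with it, Dcn and Col3a1 chose the cells. The other 4 were Igfbp6, a binding protein for insulin-like growth factor, found in 68 of 72 cells, Thbs4, a thrombospondin of tendon matrix, found in 46, Angptl7, a secreted angiopoietin-like protein, found in 28, and Clec3b (tetranectin), found in 26. The defining genes of tendon were sparse. Tnmd had 59 UMIs in 9 of 72 cells (12.5%, 5.88 to 22.4%), Scx 34 UMIs in 15 cells and Mkx 7 UMIs in 7 cells. Ptx4 was at 0 of 72 cells, a count that permits at most 4.17%. Here and below such a limit is 3 counts of the total and bounds the cells with a UMI, not those that express the gene. The matrix genes Comp and Fmod of the tendon list were seen more widely, in 65 and 36 cells, and they lay within 2-fold of chondrocytes (log2 ratios of -0.36 and -0.39). The cells are called member cells below.

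Before any result, 7 of the 72 barcodes (9.72%) stand apart because they also hold much blood RNA. In 4 of them, markers of neutrophils, macrophages and lymphocytes together made up 49358 to 207914 CPM, the UMIs of a gene or list scaled to a total of 1000000 per cell. In the other 3, erythroid markers, mainly globins, made up 92903 to 310155 CPM. No other member exceeded 10000 CPM for either list. A doublet caller marked 1 of the 7 and 1 further member. Ptprc, the pan-leukocyte gene, had UMIs in 9 of 72 cells. Markers of other tissues were at or near 0: the 10 endothelial genes had 16 UMIs in all with 6 of them at 0, the 10 skeletal muscle genes 6 UMIs with 6 at 0, and the 8 adipocyte genes 10 UMIs with 6 at 0. The 10 mural genes summed to 114 UMIs with 2 at 0, and the 10 genes of Schwann cells or glia to 94 with 5 at 0. The counts of the split described below are given with and without the 7 cells. Levels of groups and comparisons with other cell classes include them.

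Against the 4388 other barcodes that passed the same limits, most of them leukocytes, the member cells stood out for genes of fibrous matrix. The gene with the highest ratio under the fixed naming rule was Aspn, for asporin, a proteoglycan related to decorin. Its 468 UMIs lay in 43 cells, and the summed level was 692 CPM in members and 4.79 CPM in the others, a log2 ratio of 7.18 (6.96 to 7.40). Fndc1, a fibronectin-domain protein, followed at 7.07, then Igfbp6 at 6.82 and Fbln2, for the elastic-fibre protein fibulin 2, at 6.27. Ecm1 reached 6.11, Tnxb (tenascin X) 6.02, the complement inhibitor gene Serping1 5.99 and the limb homeobox gene Prrx2 5.96. The remaining named genes, Thbs4, Dkk3, Nbl1, Ly6a, Ltbp4, Cdh13 and Igfbp5, lay between 5.46 and 5.82. Clec3b had a ratio of 8.69 but was seen in too few cells for that list.

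Called here means at least 2-fold, that is, a log2 ratio of at least 1 in size, among genes with at least 50 UMIs in both sides together. On that rule 3256 of 12951 genes (25.1%) were higher in the member cells and 1984 (15.3%) lower. Of the fixed gene lists, the tendon list had 17 of 17 compared genes higher, with a median log2 ratio of 3.51 beside 0.14 over all genes. Most of the other barcodes are leukocytes. Against chondrocytes 8 of 16 of its genes were higher (median 1.10), and its summed level was 16591 CPM in members and 29664 CPM in chondrocytes with at least 10 Prg4 UMIs. The pan-fibroblast list also had 17 of 17 higher (median 3.33), but against osteoblast or stromal cells 5 of 16 higher and 3 lower (median 0.68), with a summed level of 20560 CPM in members and 100763 CPM there. Against all other barcodes the adventitial list had 15 of 17 higher (median 4.51) and the small leucine-rich proteoglycans, which bind collagen, 11 of 12 (median 2.97, with Dcn, whose level the choice of cells fixed, among them). Against chondrocytes 5 of 11 of these proteoglycans were higher and 1 lower (median 0.27). Their summed level was 24137 CPM in members and 21896 CPM in chondrocytes with at least 10 Prg4 UMIs. Among fibrillar collagens, apart from Col3a1, which also chose the cells, Col1a1, Col1a2, Col5a1, Col5a2, Col5a3 and Col24a1 were higher, whereas Col2a1, Col11a1, Col11a2 and Col27a1, used mainly in cartilage, were lower. Against osteoblast or stromal cells 3 of 11 fibrillar collagens were higher and 7 lower. All 3 chains of type VI collagen were higher and all 3 chains of type IX collagen, a cartilage collagen, lower. Of 33 transcription factors on the fibroblast list, 26 were higher and 0 lower at this fold. Against chondrocytes 12 of 27 of them were higher and 3 lower, and against osteoblast or stromal cells 8 of 20 and 4. Elastic-fibre genes were higher in 15 of 18. Against chondrocytes 13 of 16 of these were higher and 2 lower, and against osteoblast or stromal cells 6 of 15 and 3.

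The comparison was repeated with 3 classes: 346 chondrocytes (at least 2 UMIs of Acan and 5 of Col2a1), 53 osteoblast or stromal cells (at least 20 of Bglap or Cxcl12) and 64 vessel cells (Cdh5 or at least 3 of Rgs5). Genes that define a class differ from the members by construction. Against chondrocytes, 1317 of 8841 genes (14.9%) were higher in members and 990 (11.2%) lower, the higher led by Aspn (log2 ratio 9.92), Serping1 (9.82), Ltbp4 (7.79) and Ecm1 (6.88). Ltbp4 encodes a protein that binds latent TGF-beta in the matrix. Against osteoblast or stromal cells, 596 of 3892 (15.3%) were higher, led by Cilp2 (6.75), Igfbp6 (6.33) and Cilp (6.31). Cilp and Cilp2 encode cartilage intermediate layer proteins. Medag had no UMI in that class and reached at least 6.08 against its floor of 3 counts over the class. In the same comparison 307 genes (7.89%) were lower, and type I collagen was among them, since Col1a1 had a log2 ratio of -3.37 and Col1a2 -3.26 to osteoblast or stromal cells. Against vessel cells, 325 of 3775 (8.61%) were higher and 495 (13.1%) lower, the higher led by Chad (10.4), 1500015O10Rik (9.08), Cilp (9.07) and Lum (7.86). The adventitial list, 14 of 14 higher than in osteoblast or stromal cells, was higher in only 5 of 15 and lower in 2 of 15 against vessel cells.

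The members were then split by Thbs4 and Angptl7. Thbs4 lies at chr13:92751590-92794818 (-) and Angptl7 at chr4:148495183-148500460 (-). A cell with at least 1 UMI of either is called positive. There were 51 positive cells (70.8%, 58.9 to 81.0%) and 21 negative ones: 23 cells held both genes, 23 Thbs4 alone and 5 Angptl7 alone. Median depth was 8008 UMIs in positive and 9329 in negative cells, so negative cells were the deeper ones by the median. After thinning each cell to 3000 UMIs, Thbs4 was seen in 51.3% of members and 0.193% of leukocytes, and Angptl7 in 34.7% and 0.263%. Both shares lay above the background in leukocytes, whose median depth was 9891 UMIs.

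The promoters of both splitting genes are shown here with those of Chad and Cilp, matrix genes with high ratios in the split, so that the 4 can be compared. Each is the RefSeq window from 250 bases before to 50 after the gene's start on GRCm38.p6, printed on the gene's strand. Capitals mark each match to CANNTG, the E-box core bound by basic helix-loop-helix factors such as scleraxis. The search covered both strands, which give the same matches because the core reads alike on each.
Thbs4, chr13:92794769-92795068 (-): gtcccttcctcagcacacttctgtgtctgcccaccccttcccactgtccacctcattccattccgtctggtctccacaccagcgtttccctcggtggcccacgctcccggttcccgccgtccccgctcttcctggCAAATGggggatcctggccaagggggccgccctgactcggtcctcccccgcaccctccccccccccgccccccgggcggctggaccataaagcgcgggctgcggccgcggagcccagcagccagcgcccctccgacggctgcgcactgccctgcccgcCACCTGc
Angptl7, chr4:148500413-148500712 (-): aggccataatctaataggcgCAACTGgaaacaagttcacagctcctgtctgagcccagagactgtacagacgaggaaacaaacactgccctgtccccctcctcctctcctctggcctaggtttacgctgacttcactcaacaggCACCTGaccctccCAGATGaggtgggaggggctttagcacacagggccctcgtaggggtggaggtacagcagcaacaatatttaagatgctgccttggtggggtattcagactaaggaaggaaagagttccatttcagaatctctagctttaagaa
Chad, chr11:94564797-94565096 (+): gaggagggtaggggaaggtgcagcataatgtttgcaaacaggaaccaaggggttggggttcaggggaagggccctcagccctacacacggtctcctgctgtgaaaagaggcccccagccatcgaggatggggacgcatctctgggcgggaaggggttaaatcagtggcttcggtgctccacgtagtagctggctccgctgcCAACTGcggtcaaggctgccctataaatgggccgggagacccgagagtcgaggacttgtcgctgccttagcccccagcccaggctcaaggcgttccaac
Cilp, chr9:65264930-65265229 (+): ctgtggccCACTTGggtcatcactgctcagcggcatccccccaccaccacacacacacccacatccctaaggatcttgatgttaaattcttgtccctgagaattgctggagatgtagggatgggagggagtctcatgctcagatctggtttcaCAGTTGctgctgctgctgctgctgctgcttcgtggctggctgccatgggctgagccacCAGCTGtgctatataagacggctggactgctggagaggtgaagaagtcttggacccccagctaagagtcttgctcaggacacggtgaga
The windows of Angptl7 and Cilp hold 3 matches each, that of Thbs4 holds 2 and that of Chad 1. Of 32851 RefSeq promoter windows of this length, 72.3% hold at least 1 match, so its presence in all 4 is a description of the sequence.

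Positive cells carried more RNA for lubricin and for the matrix proteins Cilp, Chad and Comp. Prg4, at chr1:150449412-150466165 (-), ranged from 0 to 326 UMIs in positive cells (median 38) and from 0 to 41 in negative cells (median 3). It was seen in 50 of 51 and 16 of 21 cells, and its summed level was 7381 against 992 CPM, a log2 ratio of 2.90 (2.70 to 3.10), and 1.83 with the split at 3 UMIs. The cells overlap, and all values above 41 UMIs lay in positive cells. After thinning, Prg4 was seen in 92.9% of positive cells, 61.4% of negative cells and 2.45% of leukocytes, so the negative cells also lay above the free RNA background.

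Cilp, at chr9:65265180-65280605 (+), ranged from 0 to 175 UMIs (median 19) in positive and from 0 to 12 (median 0) in negative cells. It was seen in 45 of 51 against 8 of 21 cells, with a log2 ratio of 4.87 (4.36 to 5.42). Chad, at chr11:94565047-94569127 (+), encodes chondroadherin, a leucine-rich protein that binds cells to collagen. It had 1611 UMIs in 35 positive cells and 17 UMIs in 3 negative cells, a log2 ratio of 5.51 (4.83 to 6.29). With the split on Thbs4 alone the ratios fell to 1.299 for Chad and 2.07 for Cilp. Thinned to equal depth, Chad was seen in 65.5% of positive and 9.77% of negative cells, against 1.48% of leukocytes. Comp, a pentameric thrombospondin of cartilage and tendon, was broader, with medians of 38 and 6 UMIs and a log2 ratio of 1.84 (1.68 to 2.01). Fmod (1.98) and Prelp (1.44), collagen-binding proteoglycans, went the same way, but with the split on Thbs4 alone they were at 0.88 and 0.40 and no longer called.

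The highest ratio named by rank was that of Cytl1, a small secreted protein of cartilage, which rested on fewer cells. Its 1358 UMIs in positive cells lay in 19 of 51 cells, beside 2 UMIs in 2 of 21 negative cells, giving a log2 ratio of 8.35 (6.50 to 11.4). The size depended on where the split was drawn, and was 1.13 with the split at 3 UMIs and 2.46 with the split on Thbs4 alone. The other genes named by the rule as higher were Cox4i2 (4.99), Fibin (4.17), Ndufa4l2 (3.87), the protease gene Htra4 (3.62), Cilp2 (3.43), Ltbp2 (3.11), 1500015O10Rik (3.04) and Tob1 (2.78). With the split on Thbs4 alone, Cox4i2 fell to 2.24, Fibin to 1.57, Ndufa4l2 to 1.68 and Cilp2 to 1.64. With the split at 3 UMIs, 1500015O10Rik fell to 1.595 and Tob1 to 1.497, and Ltbp2 fell to 1.27 after thinning. Sox9, the master transcription factor of cartilage, had 117 UMIs in 31 positive and 9 in 5 negative cells, a log2 ratio of 2.65 (1.67 to 3.81).

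**Figure D1:**
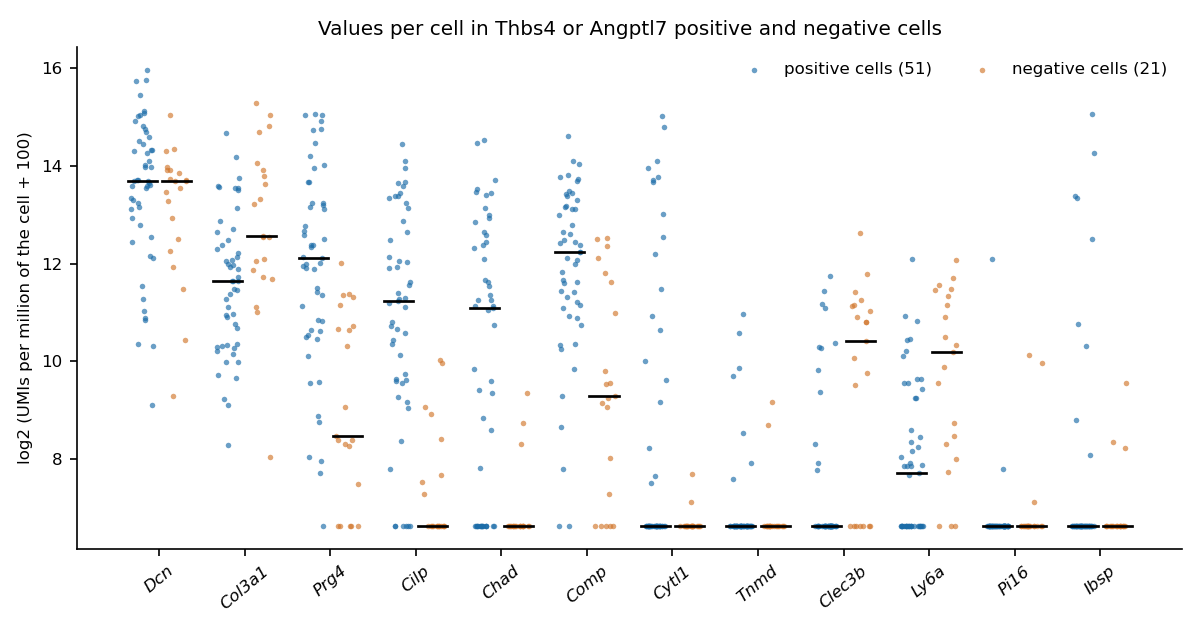
Level of 12 genes in each of the 72 member cells, as log2 of CPM of the cell plus 100, in positive cells (51, blue) and negative cells (21, orange). Bars are medians and cells without a UMI sit on the lowest line. Prg4, Cilp, Chad and Comp reach their high values in positive cells, Clec3b and Ly6a have higher medians in negative cells, Cytl1 is high in a subset of positive cells, and Tnmd, Pi16 and Ibsp have values in few cells.

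Negative cells carried more RNA for adventitial markers, complement and elastic fibres. Clec3b, at chr9:123150946-123157432 (+), ranged from 0 to 57 UMIs (median 10) in negative and from 0 to 27 (median 0) in positive cells. It was seen in 14 of 21 against 12 of 51 cells, with a log2 ratio of -2.23 (-2.53 to -1.92). At equal depth the shares were 65.7% and 19.8%, against 0.0725% of leukocytes. Ly6a had medians of 8 and 1 UMIs and a log2 ratio of -1.97 (-2.26 to -1.69). Fstl1, a secreted follistatin-like protein, had medians of 13 and 1 UMIs and a ratio of -2.42.

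The lowest of the 12 ratios named by rank was that of complement component C3, at -3.14 (-3.99 to -2.36), from 72 UMIs in 9 negative cells and 17 in 6 positive cells. At equal depth C3 was seen in 33.5% of negative cells, 6.03% of positive cells and 44.7% of leukocytes, and the part of free RNA in it was not tested. Scara5, a ferritin receptor with 49 UMIs in 14 negative and 13 in 6 positive cells, followed at -2.97. It was seen in 0.0109% of leukocytes at equal depth. The others were Sned1 (-2.36), Heg1 (-2.34), C1s1 (-2.18), Col14a1 (-2.07), Ltbp1 (-2.06), Nid1 (-1.95) and Islr (-1.92). Of the genes that chose all members, Dcn differed by 0.60 and Col3a1 by -1.27.

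Over all genes, 143 of 1982 (7.21%) were higher in positive cells and 133 (6.71%) lower, with a median log2 ratio of -0.13. The adventitial list had 9 of 14 compared genes lower and 0 higher (median -1.19), namely Ly6c1, Cd34, Anxa3, Clec3b, Ly6a, Cd248, Mfap5, Dpt and Ackr3. Of these, Cd34 was at -0.83 with the split on Thbs4 alone and Ackr3 at -0.78 without its highest cell. The tendon list had 7 of 13 higher (Tnmd, Fmod, Comp, Cilp, Cilp2, Chad and Prelp) and 2 lower, Tnc and Col12a1 (median 1.24). Tnmd, seen in 7 of 51 and 2 of 21 cells, was at 0.69 without its highest cell and at -0.88 with the split on Thbs4 alone, and Tnc at -0.65 without its highest cell. Tnc encodes tenascin C and Col12a1 a collagen that lies along fibrils, both prominent in tendon. Joint surface genes were higher in 4 of 6 (Prg4, Htra4, Hbegf and Cytl1) and lower in none. Elastic-fibre genes were lower in 6 of 10, with Eln, Fbn1, Fbln2, Mfap5, Ltbp1 and Vcan lower and Ltbp2 higher. Eln had 51 UMIs in 3 negative cells and 4 in 2 positive cells, so its ratio rests on those cells. Of the 11 compared genes of the complement and innate list, 6 were lower, the complement genes C3, C4b, C1s1, C1ra and Serping1 and the chemokine Cxcl14, and Lcn2 was higher. Of 10 non-fibrillar collagens 5 were lower and Col15a1 higher. Without the 7 cells with high blood RNA, Col15a1 lay within 2-fold, and Lcn2 (1.4985, from 4.42) and Ltbp2 (2.59) had too few UMIs to be compared.

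**Figure D2:**
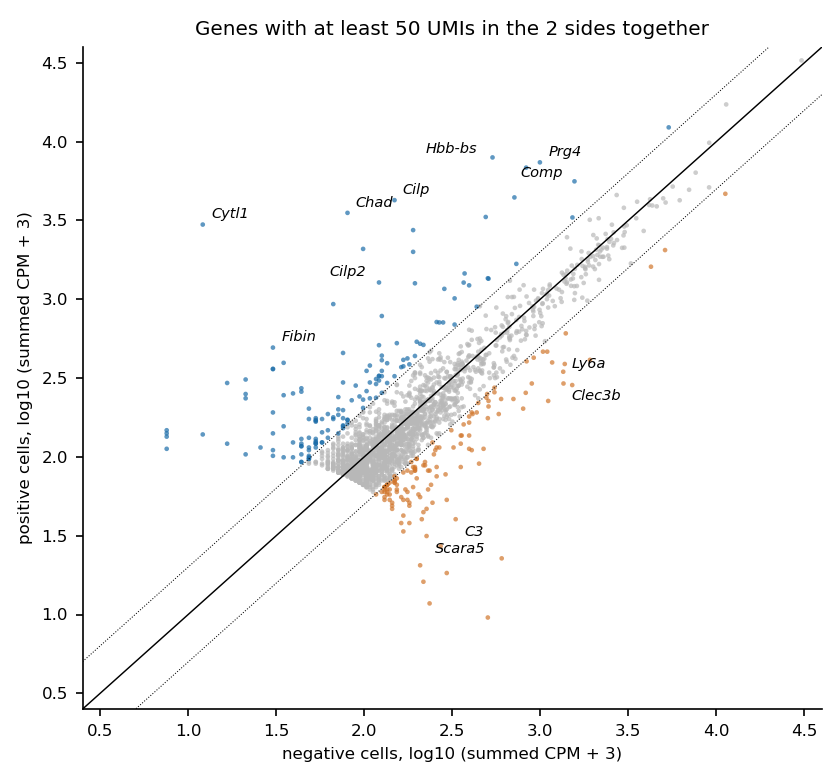
Summed level of the 1982 genes compared, log10 of CPM plus 3, in the 21 negative cells (horizontal) and the 51 positive cells (vertical). The solid line is equality and dotted lines mark a 2-fold difference. The 143 genes above the upper line are blue and the 133 below the lower one orange. Hbb-bs, a globin, lies among the blue genes, and no erythroid gene is called without the 7 cells with high blood RNA.

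Stress and blood RNA also moved with the split. Of 20 immediate early and stress genes, which respond to tissue digestion among other things, 7 were higher in positive cells (Ier2, Ier3, Atf3, Dusp1, Hspa1a, Hspa1b and Hspb1) and 0 lower. Atf3 was at 0.69 with the split at 3 UMIs and Dusp1 at 0.93 with the split on Thbs4 alone. The part of stress genes in the other differences was not tested. The 6 erythroid genes compared were all higher in positive cells, which hold 6 of the 7 cells with high blood RNA. Without those 7 cells, 106 of 1624 genes (6.53%) were higher and 103 (6.34%) lower, and 0 of 4 erythroid genes were called. The tendon list then gave 7 of 13 higher and 2 lower, the adventitial list 8 of 14 lower and the surface list 4 of 6 higher. Stress genes gave 8 of 20 higher.

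Tendon and adventitial matrix genes tended to be high in different cells, as the plot of both list sums shows. The tendon list without Thbs4 and Angptl7 and the adventitial list without Gsn, a gene that leukocytes also carry, were summed per cell. Over the 72 cells the 2 sums correlated with Pearson r = -0.26 and Spearman rho = -0.30, and over the 65 cells without high blood RNA with -0.36 and -0.44. These are descriptions across cells of 1 pool that share library and depth. By single genes, 35 cells held at least 3 Chad UMIs and 4 of these had any Clec3b, while 23 cells held at least 3 Clec3b UMIs and 2 of these had any Chad.

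**Figure D3:**
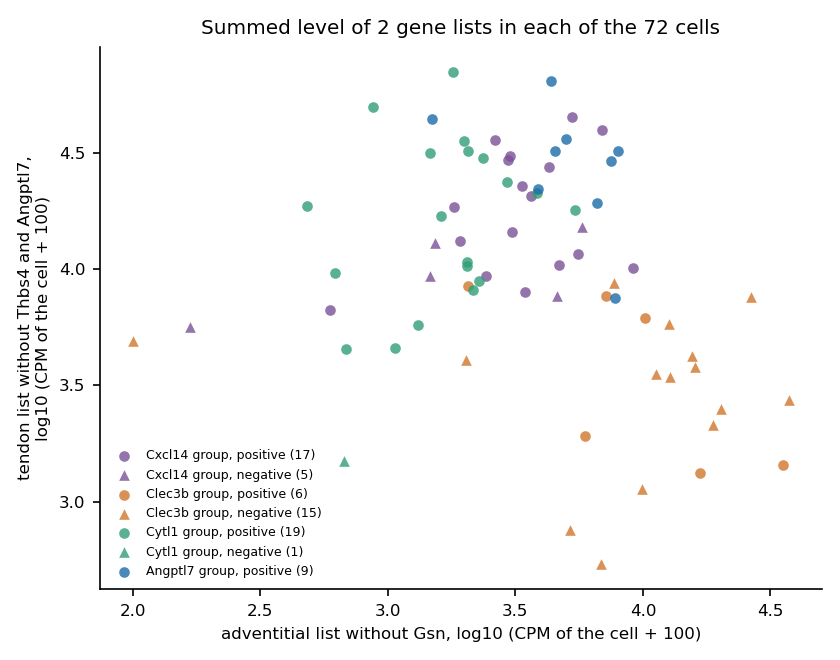
Summed level of the adventitial list without Gsn (horizontal) and the tendon list without Thbs4 and Angptl7 (vertical) in each of the 72 cells, log10 of CPM of the cell plus 100. Circles are positive and triangles negative cells, and colours are 4 groups found by clustering. Orange cells of the Clec3b group lie mostly to the lower right, and the 9 blue cells of the Angptl7 group high in the plot.

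Clustering of the 72 cells on their variable genes gave 4 groups, which were described by their genes and not tested, since those genes made the groups. Group 3 has neutrophil and globin genes (Camp, Ngp, S100a8, S100a9, Hbb-bs) as its leading genes and contains all 7 cells with high blood RNA, so it is given no cell type name. It is called here by Cytl1, its first gene that is not of blood. The other groups are called by a gene among the first 3 of their leading genes. At a coarser resolution the cells fell into 2 groups, of which 1 was made up of 18 of the 21 Clec3b cells, and at a finer one into 7. Without the 7 cells there were again 4 groups, which kept together 21 of 21 Clec3b cells, 21 of 22 Cxcl14 cells, 13 of 13 remaining Cytl1 cells and 9 of 9 Angptl7 cells.

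The Clec3b group had 21 cells, of which 6 were positive. It held 388 of the 429 Clec3b UMIs of the members, 58 of 62 Scara5 UMIs and 46 of 47 Pi16 UMIs. The Pi16 UMIs lay in 4 of its 21 cells, 29 of them in 1. Over all members, Pi16 was seen at equal depth in 4.77% of cells, beside 8.27% of leukocytes. Igf1, for insulin-like growth factor 1, reached 1109 CPM there, against 4.78 to 201 CPM in the other groups. Col3a1 was at 14535 CPM and Igfbp6 at 4118 CPM, the highest of the groups for each. Chad was at 0 of 21 cells, which allows a share of up to 14.3%, and Tnmd also at 0 of 21. The whole adventitial list, Gsn included, summed to 25602 CPM in this group and to 6092 to 8482 CPM in the others. By that sum the group is called adventitial-like. Of the list, Clec3b, Ly6a, Cd34, Cd248, Mfap5 and Dpt were among its leading genes, which also made the group. Sema3c of the same list was a leading gene of the Angptl7 group instead.

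The Cxcl14 group had 22 cells, 17 of them positive, and held all 59 Tnmd UMIs, in 9 of its cells. Of the 9 Tnmd cells, 7 were positive and 6 carried Chad. The group was also highest for Col12a1 (487 CPM), Tnc (346 CPM, of which 1 cell held 56.5%), Fmod (2152 CPM) and Lum (2894 CPM, against 210 to 1072 CPM elsewhere). Lum encodes lumican, a fibril-spacing proteoglycan. Myoc, which encodes myocilin, was at 2383 CPM. Cxcl14, the chemokine gene that gives the group its name, was seen in 11 of the 22 cells.

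The Cytl1 group had 20 cells, of which 19 were positive. It held 1218 of 1360 Cytl1 UMIs, in 18 cells, and Sox9 was seen in 20 of 20 cells at 435 CPM, against 10.4 to 224 CPM in the other groups. Prg4 reached 10603 CPM there and Thbs4 1477 CPM. These and the other levels of the group include its 7 cells with high blood RNA, whose blood UMIs are part of the total. Levels without those cells are not given. In the whole group, Clec3b had no UMI, Scx none and Lum 210 CPM. The chondrocyte list summed to 798 CPM, beside 14687 CPM in chondrocytes with much Prg4. Frzb, Hapln1 and Cytl1, all known from articular cartilage, were among its 20 leading genes, as were genes of dividing cells such as Hmgb2 and Cks2. At least 2 of the division genes Top2a, Mki67 and Birc5 were seen in 5 members, but in only 1 of the 65 cells without high blood RNA.

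The Angptl7 group had 9 cells, all positive. Angptl7 stood at 3669 CPM and was seen in 9 of 9 cells, against 57.3 to 757 CPM in the other groups. Dcn was at 38221 CPM, Cilp at 10505 CPM, Chad at 7166 CPM and Prelp at 3326 CPM, each the highest of the groups. Scx was seen in 5 of the 9 cells (10 UMIs) and Tnmd in none, which allows up to 33.3%. Spp1, for osteopontin, was at 6124 CPM but in 5 cells, of which 1 held 46.6% of the UMIs.

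**Figure D4:**
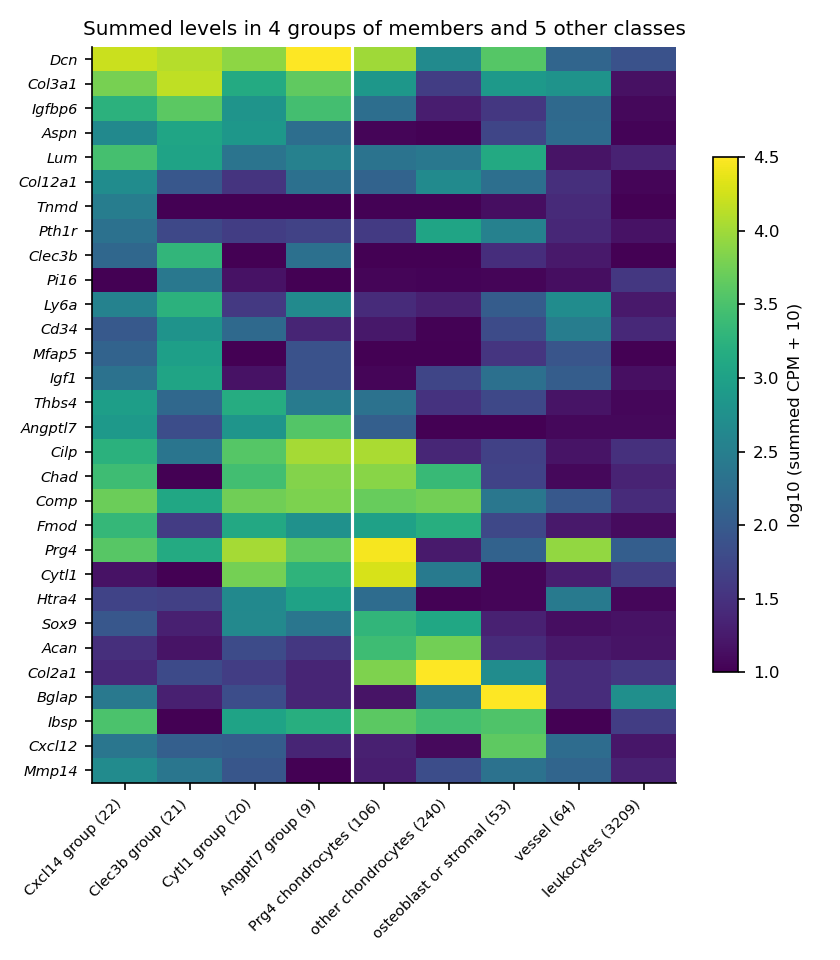
Summed level of 30 genes, log10 of CPM plus 10, in the 4 groups of member cells (left of the white line) and 5 other classes, with cell numbers in brackets. Clec3b, Mfap5 and Igf1 are high in the Clec3b group, Tnmd in the Cxcl14 group, and Cilp and Chad in both the Angptl7 group and the Prg4 chondrocytes. Among the groups Prg4 is highest in the Cytl1 group, at 10603 CPM with its 7 cells of high blood RNA included.

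As lubricin, Cytl1 and Sox9 are shared with cells of the articular surface, the 51 positive cells were set beside 106 chondrocytes with at least 10 Prg4 UMIs, a comparison chosen after the values were seen. Prg4, Acan and Col2a1 chose those chondrocytes, and Dcn, Col3a1, Acan, Thbs4 and Angptl7 the positive cells, so the values of these genes are a description. Of 4681 genes, 375 (8.01%) were higher in positive cells and 450 (9.61%) lower, with a median log2 ratio of 0.13. Several matrix genes lay within 2-fold: Comp at 0.23 (0.16 to 0.29), Prelp at 0.31 and Fmod at 0.55. Dcn, which chose the positive cells, was at 0.77. Cilp was lower in positive cells by a log2 ratio of -1.44, Chad by -1.08, Cytl1 by -2.70 and Sox9 by -2.97 (-3.25 to -2.70). All 10 chondrocyte genes compared, Acan and Col2a1 included, were lower, with a median of -5.47.

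In the other direction, Aspn had a log2 ratio of 8.94 with a lower bound of 7.08, Igf1 7.50, Serping1 7.28 and Igfbp6 3.30. Adventitial genes were higher in 9 of 13 and pan-fibroblast genes in 10 of 15, with none lower. Clec3b had no UMI in the chondrocytes and reached a log2 ratio of at least 7.24 against their floor of 3 counts. Its 132 UMIs lay in only 12 of the 51 positive cells, and most of the UMIs in positive cells of the Clec3b group. Myoc was at 1347 against 83.3 CPM. Of the surface list, Prg4, Hbegf, Gdf5, Cytl1 and Has2 were lower in positive cells and Htra4 higher.

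Bone matrix genes were found in few members. Ibsp, for the mineral-binding bone sialoprotein, had 972 UMIs in 12 of 72 cells, and 471 of them lay in 1 positive cell. That cell also held 239 Col1a1, 29 Alpl, 19 Pth1r and 18 Bglap UMIs, and 14 UMIs of the GFP transgene, which no other member had. Ibsp was seen in 9 of 51 positive cells (17.6%) and 3 of 21 negative cells (14.3%), shares that lie within each other's intervals. In the split, Ibsp had a log2 ratio of 4.45, 2.12 with the split on Thbs4 alone and 6.38 without the 7 cells with high blood RNA. Spp1 was at 1.20, but at -0.11 with the split on Thbs4 alone, and it was not called without the 7 cells with high blood RNA. Alpl was at -1.22, but at 1.00 without its highest cell, and Bglap, whose upper limit is part of the rule, at -1.10. Of the 7 cells with at least 10 Ibsp UMIs, 6 were positive, 5 held Spp1, 4 Alpl and 2 Bglap. Each of these held at least 8 Chad UMIs. Among them are cells with high blood RNA, a positive one with 157 Ibsp UMIs and a negative one with 16. The log2 ratio of Ibsp to all other barcodes was 1.60, and 0.67 without its highest cell.

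Mmp14 and Pth1r, the protease and the parathyroid hormone receptor whose relation the study addresses, were both detected. Mmp14, at chr14:54431612-54445364, had 155 UMIs in 36 of 72 cells. A single positive cell held 78 of these UMIs, the median positive cell 0, and negative cells 0 to 6 (median 2). By group, Mmp14 was seen in 18 of 21 Clec3b cells, 10 of 22 Cxcl14 cells, 8 of 20 Cytl1 cells and 0 of 9 Angptl7 cells, where a 0 allows up to 33.3%. The summed log2 ratio of positive to negative cells was 0.19 (-0.32 to 0.72) and became -1.60 without the highest cell. At equal depth, Mmp14 was seen in 20.9% of positive and 50.9% of negative cells, against 1.49% of leukocytes. Against all other barcodes the ratio was 3.56, or 2.57 without the highest cell.

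Pth1r, at chr9:110722085-110747145, had 57 UMIs in 23 cells, 19 of them in the cell with the highest Ibsp. The Cxcl14 group, to which that cell belongs, held 38 of the 57 UMIs, in 14 of its 22 cells, and 19 of the 38 lay in that cell. The level in members, 84.3 CPM, lay below the 866 CPM of chondrocytes and the 333 CPM of osteoblast or stromal cells, and above the 4.93 CPM of leukocytes. Both genes had a UMI in 12 of 72 cells (16.7%, 8.92 to 27.3%). As 1 allele of Mmp14 is floxed in every mouse, no comparison with an unmodified locus was possible.

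The lineage reporter was rarely high in these cells. WPRE is the stretch of the tdTomato transcript that the 3' reads detect best, and more than 14 of its UMIs was taken as a high value. This held for 1 of 72 members (1.39%, 0.0352 to 7.50%), 0 of 51 positive and 1 of 21 negative cells. By the 3-count limit, the 0 of 51 allows a share of up to 5.88%. Among Prg4 chondrocytes the share was 19.8% (21 of 106, 12.7 to 28.7%), among osteoblast or stromal cells 41.5% (22 of 53, 28.1 to 55.9%), and among leukocytes 0.156% (5 of 3209). Among other chondrocytes it was 9.17% (22 of 240, 5.83 to 13.5%) and among vessel cells 7.81% (5 of 64, 2.59 to 17.3%). The limit was set on unthinned counts, and Prg4 chondrocytes were deeper, with a median of 12850 UMIs.

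The 1 cell above the limit, in the Cxcl14 group, held 26 WPRE and 4 tdTomato UMIs with 156 Spp1, 44 Alpl, 39 Tnc and 13 Bglap UMIs, and no Prg4, Chad or Thbs4. At least 1 WPRE UMI was found in 19 of 72 members (26.4%) and in 41.2% of leukocytes. After thinning the shares were 11.5% and 16.1%, so single UMIs in members are no higher than the background in leukocytes. As tdTomato-positive cells were enriched before capture, these shares describe the pool and not the tibia.

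**Figure D5:**
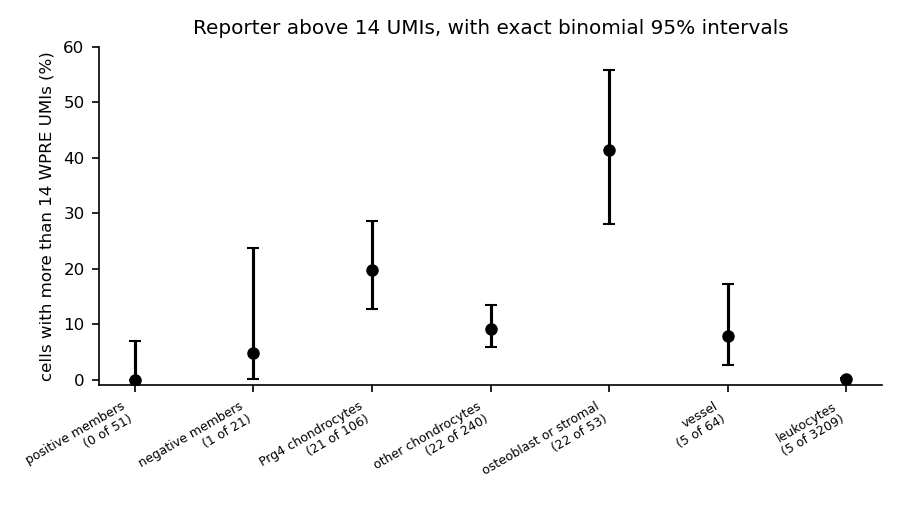
Percent of cells above 14 WPRE UMIs (vertical) in positive and negative member cells and 5 other classes, with exact binomial 95% intervals. The 51 positive cells are at 0 and the 53 osteoblast or stromal cells highest at 41.5%.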

How the data were processed

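Single cells from P56 tibiae were captured with 10x Genomics 3' chemistry. Per the submitters' processing notes, reads were processed with Cell Ranger 3.1.0 on mm10 plus transgene sequences, and Seurat 3 was used downstream. The values are the authors' deposited raw UMI counts per gene and barcode (31053 genes, 12564 barcodes, at least 500 UMIs each); 0 columns were left unmapped, and all 8 labelled samples of 3 mice form 1 pool. Cells were called doublets by Scrublet (scanpy 1.11.5, expected rate 6%), which marked 3.54% of barcodes; these were kept and left out as an alternative.

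Counts were summed over cells, scaled to CPM and compared as log2 ratios with exact conditional 95% intervals; levels carry exact Poisson and shares exact Clopper-Pearson intervals (scipy 1.17.1). Genes with at least 50 UMIs in both sides together were compared. Shares at equal depth are the expected shares at 3000 UMIs per cell. Floors are 3 counts over a group. Groups came from Leiden clustering (1500 variable genes, 15 components, 10 neighbours, resolution 0.6). The ratio script was checked on simulated counts.

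Genes were named as the rule and label genes, the 15 highest ratios to all other barcodes, the 5 highest to each class, the 12 highest and 12 lowest of the split, the fixed lists, and Mmp14, Pth1r and the reporters; a gene that this rule names is not reported here. For the rankings a gene had to be seen in at least 50% of members (for the split, 25% of the higher side) with at most 25% of its UMIs in 1 cell. The members and lists were chosen with earlier results of these data known. The comparison with Prg4 chondrocytes, the limit of 10000 CPM for blood RNA and the other group resolutions were chosen after seeing the data.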

Additional observations from a re-analysis of the deposited data

How the results depend on the processing

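No paired analysis was possible because the pool gives no replicate columns. With a floor of 1000 genes the members were 0.989% of barcodes. Requiring 200 UMIs left fewer genes: 1740 were higher against all other barcodes, 47 higher and 27 lower in the split, 405 and 535 against chondrocytes, 153 and 91 against osteoblast or stromal cells, and 105 and 103 against vessel cells. Fewer genes were compared at 200 UMIs, so these counts do not show whether the called shares moved. Without the cell holding most UMIs of each gene, 74 of the 1982 genes compared were lower in the split, beside 133 with it. The reporter share counted as at least 1 WPRE UMI after thinning was 11.5%. Resolutions of 0.4 and 1.0 gave 2 and 7 groups. In the split, 668 values of named genes kept their side of 2-fold, 29 fell within it, 4 passed it and 7 turned. Values within 2-fold in the main setting could change sign and still count as kept. Dcn did so, from 0.60 to -0.02 with the split on Thbs4 alone. Camp turned to 5.73 with Dcn and Col3a1 at 5 UMIs, 5.67 without Ptprc cells, 1.36 without cells with high blood RNA and 5.71 without its highest cell, which also turned Alpl to 1.00. With the split on Thbs4 alone, Tnmd was at -0.88 and Spp1 at -0.11. The cells with most Camp and Alpl UMIs were both negative, with 928 Camp UMIs in the one and 44 Alpl UMIs in the other. The causes of these turns were not tested. Against all other barcodes 241 values kept their side, and Ibsp (0.67) and Alpl (0.35) fell within 2-fold without their highest cells. The 24 genes named by rank in the split kept their side of 2-fold in the 12 alternatives run, but sizes fell, among them Cytl1 to 1.13 with the split at 3 UMIs, Ltbp2 to 1.27 after thinning and, with the split on Thbs4 alone, Chad to 1.299, Cilp to 2.07, Cox4i2 to 2.24, Fibin to 1.57, Ndufa4l2 to 1.68 and Cilp2 to 1.64. Depth limits genes under 50 UMIs, and 21 negative cells limit the shares.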

Other observations

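Limb and mesenchymal transcription factors were detected among the member cells. Prrx1, a homeobox gene of limb mesenchyme, had 316 UMIs in 68 of 72 cells and a log2 ratio to all other barcodes of 5.04, and differed by 0.39 between positive and negative cells. Twist1 (112 UMIs in 48 cells) had a ratio of 4.24, Tbx15 4.38, Meox2 5.39, Hoxa10 3.68 and Pitx1, a hindlimb factor, 3.38. None of these 6 was called in the split. There, 13 of the 43 listed factors had enough UMIs to be compared, and 10 of the 13 lay within 2-fold. Ebf1 was 1 of the few factors called there, at -1.15. The Clec3b group held 117 of its 174 UMIs, but Ebf1 was also seen in 25.3% of leukocytes at equal depth.

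The following genes were singled out after their values were seen. Of the secreted Wnt inhibitors, Dkk2 had 70 of 89 UMIs and Sfrp4 87 of 141 UMIs in the Cxcl14 group, and 1 cell held 29.2% and 41.1% of each. Dkk3 had 41 of 95 UMIs in the Cytl1 group, and Frzb was a leading gene of that group with 29 UMIs in 12 cells. Of the matrix metalloproteinases, Mmp2 had 174 of 294 UMIs in the Cxcl14 group. All 53 Mmp13 UMIs lay in 3 cells and 99 of 113 Mmp3 UMIs in 1 negative cell. Their split ratios were -3.55 and -6.25, and -1.44 and -3.01 without the cell with most UMIs of each gene.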
